A study of Mus musculus with 16 samples.

Results

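Binding of 2 transcription factors, Bcl11a and Spi1, was compared in 1 cell population of the series: MPP3 progenitors of WT-iMOS mice carrying the label T2. The comparison used 6 of the 16 libraries, 3 for Bcl11a and 3 for Spi1. Their 34189 peaks on assembled chromosomes were merged wherever peaks shared at least 1 bp, which gave 16647 regions. A region was called Bcl11a-only when all 3 Bcl11a lists and 0 of 3 Spi1 lists had a peak in it, Spi1-only in the reverse case, and common when all 6 lists had one. These 3 classes held 102, 1731 and 816 regions, or 0.613%, 10.4% and 4.9% of all merged regions.

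All 6 libraries were made by CUT&Tag, in which an antibody brings a transposase to a bound factor so that nearby DNA is tagged for sequencing. The cells were MPP3 sorted from bone marrow, and the sample titles carry the text 3m. No label explains iMOS, T1, T2 or 3m, which allele separates KO-iMOS from WT-iMOS, or the sex and strain of the mice. Nor is it stated whether replicates came from separate animals, so p-values measure only the spread between these samples, which may be technical. The other 10 libraries (Bcl11a and Spi1 in WT-iMOS T1, 3 each, and Spi1 in KO-iMOS, 2 T1 and 2 T2) did not enter the classes and served as a separate readout. The study's stated aim was to learn how Bcl11a works in MPP3 cells.

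Bcl11a is a zinc finger repressor that works with chromatin-modifying complexes. It is known for silencing fetal globin genes and for its need in B cell and plasmacytoid dendritic cell development. Spi1, also called PU.1, is an ETS family activator that recognises a purine-rich GGAA core and is required for the myeloid and lymphoid lineages. MPP3 cells are multipotent progenitors that lean towards the myeloid lineage, where Spi1 is a leading regulator.

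Promoter sequences were read for Spi1's core motif, which differed between the classes over all windows but not in each window shown. The 6-base core GGAAGT, the 8-base GAGGAAGT that contains it, and TGACCA, a motif known for Bcl11a at the globin genes, were searched on either strand in the 250 bases before each annotated gene start. The search covered 21262 RefSeq promoter windows on GRCm38.p6, which is the assembly behind mm10. Shown are, for each class, the 2 windows of which its strongest regions covered at least 125 bases, and for Spi1-only and common regions a few windows of genes from the lineage and function lists. Each runs 5′ to 3′ on the gene's strand, and capitals mark GGAAGT or its reverse complement. Kpnb1 (nuclear import receptor) and Sacm1l (phosphoinositide phosphatase) are Bcl11a-only. Mob1a (Hippo pathway adaptor), Rps19 and Rps3 (ribosomal proteins) and Fcgr1 (high-affinity IgG receptor of macrophages) are Spi1-only. B9d2 (ciliary protein), Amz2 (a metalloprotease) and Ifngr1 (interferon gamma receptor) are common.
Kpnb1, chr11:97187893-97188142, minus strand: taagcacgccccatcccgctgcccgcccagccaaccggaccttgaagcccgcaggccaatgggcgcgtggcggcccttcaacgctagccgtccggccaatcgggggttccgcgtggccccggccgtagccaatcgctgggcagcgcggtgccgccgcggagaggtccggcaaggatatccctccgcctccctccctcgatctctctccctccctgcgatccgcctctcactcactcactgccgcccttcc
Sacm1l, chr9:123529503-123529752, plus strand: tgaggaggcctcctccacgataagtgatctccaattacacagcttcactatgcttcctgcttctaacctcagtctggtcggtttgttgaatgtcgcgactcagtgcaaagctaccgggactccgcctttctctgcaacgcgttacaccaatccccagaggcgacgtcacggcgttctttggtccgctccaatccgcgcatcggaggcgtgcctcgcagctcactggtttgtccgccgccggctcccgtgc
Mob1a, chr6:83325789-83326038, plus strand: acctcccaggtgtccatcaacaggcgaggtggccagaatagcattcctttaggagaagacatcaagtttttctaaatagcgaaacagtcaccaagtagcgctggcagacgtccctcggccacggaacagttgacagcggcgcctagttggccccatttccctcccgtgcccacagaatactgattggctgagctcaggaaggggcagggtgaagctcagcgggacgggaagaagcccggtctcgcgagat
Rps19, chr7:24884342-24884591, plus strand: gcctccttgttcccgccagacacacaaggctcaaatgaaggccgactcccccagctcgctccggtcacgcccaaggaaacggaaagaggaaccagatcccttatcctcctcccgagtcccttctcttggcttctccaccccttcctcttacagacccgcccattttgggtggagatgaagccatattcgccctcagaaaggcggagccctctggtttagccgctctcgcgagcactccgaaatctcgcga
Fcgr1, chr3:96293970-96294219, minus strand: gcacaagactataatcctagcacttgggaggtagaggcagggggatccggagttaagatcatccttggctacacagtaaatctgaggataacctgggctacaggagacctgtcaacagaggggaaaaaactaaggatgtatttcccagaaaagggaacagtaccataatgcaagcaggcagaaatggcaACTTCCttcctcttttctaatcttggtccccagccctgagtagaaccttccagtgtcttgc
Rps3, chr7:99483710-99483959, minus strand: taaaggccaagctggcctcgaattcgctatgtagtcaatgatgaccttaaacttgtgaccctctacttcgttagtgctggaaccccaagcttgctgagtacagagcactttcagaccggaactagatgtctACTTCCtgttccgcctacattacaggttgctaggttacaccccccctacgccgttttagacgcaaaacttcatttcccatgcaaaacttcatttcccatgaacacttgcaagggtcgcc
B9d2, chr7:25680530-25680779, plus strand: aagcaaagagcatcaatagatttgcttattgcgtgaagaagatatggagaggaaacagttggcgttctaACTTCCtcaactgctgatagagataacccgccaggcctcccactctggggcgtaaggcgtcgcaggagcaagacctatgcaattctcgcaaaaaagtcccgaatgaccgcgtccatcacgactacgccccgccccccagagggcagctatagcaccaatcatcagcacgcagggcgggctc
Amz2, chr11:109425696-109425945, plus strand: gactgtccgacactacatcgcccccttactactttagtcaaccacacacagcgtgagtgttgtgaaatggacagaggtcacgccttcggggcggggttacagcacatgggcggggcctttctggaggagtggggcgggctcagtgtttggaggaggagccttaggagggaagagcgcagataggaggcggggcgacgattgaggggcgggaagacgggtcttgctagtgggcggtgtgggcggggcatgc
Ifngr1, chr10:19591699-19591948, plus strand: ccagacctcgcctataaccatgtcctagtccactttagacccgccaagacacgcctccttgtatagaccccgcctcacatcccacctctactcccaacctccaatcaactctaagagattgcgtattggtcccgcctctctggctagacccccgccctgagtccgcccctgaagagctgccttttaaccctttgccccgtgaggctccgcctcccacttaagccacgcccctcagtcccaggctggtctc

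GGAAGT was more frequent in the promoter windows that Spi1-only regions overlapped than in those of the other classes. It stood in 252 of 499 such windows, or 50.5% (95% Clopper-Pearson interval 46.0 to 55.0%, counting error only), beside 20.4% of all 21262 windows. Windows overlapped by Bcl11a-only regions held it in 5 of 41 cases (12.2%, 4.08 to 26.2%), and those overlapped by common regions in 17 of 67 (25.4%, 15.5 to 37.5%). The 499, 41 and 67 windows belonged to 436, 34 and 58 genes. Windows of the same gene are not independent, so these intervals can be too narrow. In the printed windows the match lies at Fcgr1, Rps3 and B9d2, while Kpnb1, Sacm1l, Mob1a, Rps19, Amz2 and Ifngr1 have none, so the 2 strongest Spi1-only windows lack it and a common one holds it. GAGGAAGT was found in 66 of 499 Spi1-only windows (13.2%), 0 of 41 Bcl11a-only windows and 4 of 67 common windows (5.97%), and in 2.23% of all windows. The zero leaves a share of up to 8.60% within the same interval.

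Spi1-only windows also had the highest GGAAGT share with the T2 lists cut and in the T1 lists. With every T2 list cut to equal length the shares were 52.4% for Spi1-only, 21.3% for Bcl11a-only (16 of 75, 12.7 to 32.3%) and 23.8% for common windows (5 of 21, 8.22 to 47.2%). Intervals of the Bcl11a-only and common shares overlapped and held the 20.4% of all windows, so the low Bcl11a-only share was not repeated there. In classes built the same way from the 6 WT-iMOS T1 lists the shares were 55.3% for Spi1-only, 15.1% for Bcl11a-only and 30.1% for common windows. TGACCA differed less, at 9.82% of Spi1-only, 14.6% of Bcl11a-only and 14.9% of common windows against 10.5% of all windows. Base composition moved with the classes: the median GC content was 59.6% in Spi1-only, 66.8% in Bcl11a-only and 64.4% in common windows, and 55.6% in all windows. Its part in the motif shares was not tested. A match is a description of the letters in a window and not a bound site.

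The Spi1 lists were longer than the Bcl11a lists. The 3 Bcl11a lists held 4634, 2605 and 3168 peaks and the 3 Spi1 lists 12126, 6730 and 4926. Each Spi1 list was longer than each Bcl11a list, with means of 3469 ± 1047 and 7927 ± 3746 (SD, n = 3 each). The exact two-sided permutation p over libraries was 0.1, the smallest that 3 against 3 allows, and 0.2 after Benjamini-Hochberg adjustment over 6 measures. Median peak width was 320, 353 and 356 bp in the Bcl11a lists and 399, 360 and 338 bp in the Spi1 lists, which overlapped (exact permutation p = 0.4). Summits lay inside protein-coding genes in 46.2% ± 1.30 of Bcl11a peaks and 50.8% ± 1.12 of Spi1 peaks, without overlap between the targets (n = 3 each, exact permutation p = 0.1, adjusted 0.2).

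Bcl11a replicate 1 stood apart from the other Bcl11a lists in position. Within 1 kb of the start or end of a protein-coding gene lay 10.6% of its summits, against 21.0% and 20.1% in Bcl11a replicates 2 and 3. The Spi1 lists had 23.5%, 21.9% and 17.8%. The groups overlapped and did not differ beyond their spread (exact permutation p = 0.4). Read depth is unknown for every list, so a longer list and a deeper library cannot be told apart.

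Most regions were called in few lists. Of all 16647 regions, 51.1% had a peak in 1 list only. Among the 1221 regions with a peak in all 3 Bcl11a lists, 66.8% had one in all 3 Spi1 lists and 8.35% in none. Among the 3289 regions with a peak in all 3 Spi1 lists, 24.8% had one in all 3 Bcl11a lists and 52.6% in none. Shared regions were therefore the larger share of the reproducible Bcl11a regions, and Spi1-only regions the larger share of the reproducible Spi1 regions.

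**Figure D1:**
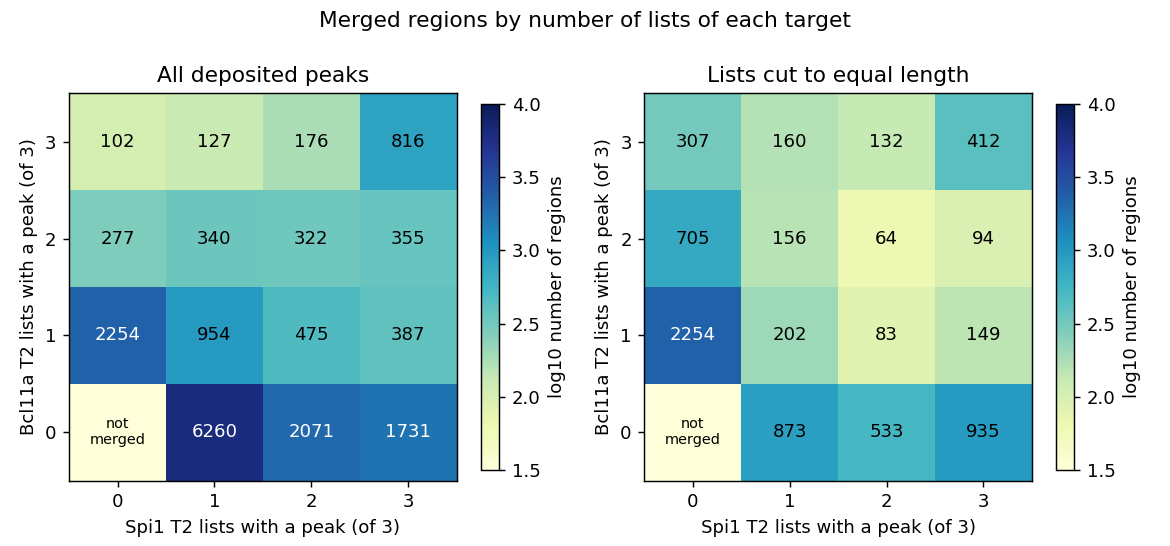
Number of merged regions (printed in each cell, colour on a log10 scale) by how many of the 3 Bcl11a lists (vertical) and 3 Spi1 lists (horizontal) had a peak, for all deposited peaks (left) and for lists cut to 2605 peaks (right). The corner with 3 of 3 Bcl11a and 0 Spi1 lists holds 102 regions on the left and 307 on the right.

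The number of Bcl11a-only regions moved with list length. When the 2605 peaks with the highest deposited −log10 p were kept in each list, 7059 merged regions remained, with 307 Bcl11a-only (4.35%), 935 Spi1-only (13.2%) and 412 common regions (5.84%). Of the 1011 regions in all 3 Bcl11a lists, 40.8% were then common and 30.4% Bcl11a-only. Of the 1590 regions in all 3 Spi1 lists, 25.9% were common and 58.8% Spi1-only. The split of the Spi1 regions moved little with list length, and the Bcl11a-only share of the Bcl11a regions moved from 8.35% to 30.4%. The Spi1 lists were cut from 12126, 6730 and 4926 peaks. Only 102 regions were Bcl11a-only with all peaks, so regions among the 307 can hold a deposited Spi1 peak below the cut.

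The T1 libraries, which had no part in the classes, showed the same separation of targets. Bcl11a-only regions of T2 had a peak in 46.1%, 63.7% and 64.7% of cases in the 3 T1 Bcl11a lists and in 24.5%, 6.86% and 9.80% in the 3 T1 Spi1 lists. Regions outside the 3 classes had one in 16.9%, 22.3% and 26.0% of cases in the T1 Bcl11a lists and in 42.3%, 26.5% and 24.6% in the T1 Spi1 lists. Every T1 Bcl11a list was above every T1 Spi1 list, with a difference of 44.4 percentage points (exact two-sided permutation p = 0.1, the smallest possible, and 0.1 adjusted over the 3 classes). It was 21.7 points when the classes were made without T2 Bcl11a replicate 2, 28.1 without replicate 3, and 20.6 when 2 of 3 lists were enough for a class. Spi1-only regions were called in 9.82%, 27.3% and 35.7% of cases in the T1 Bcl11a lists and in 94.6%, 84.1% and 75.9% in the T1 Spi1 lists. Here the T1 Spi1 lists were all higher, with a Bcl11a minus Spi1 difference of −60.6 points (exact permutation p = 0.1, adjusted 0.1). With equal-length lists the differences were 41.3 and −68.8 points. Common regions were found by 91.3% to 92.3% in the T1 Bcl11a lists and by 92.8% to 96.9% in the T1 Spi1 lists.

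**Figure D2:**
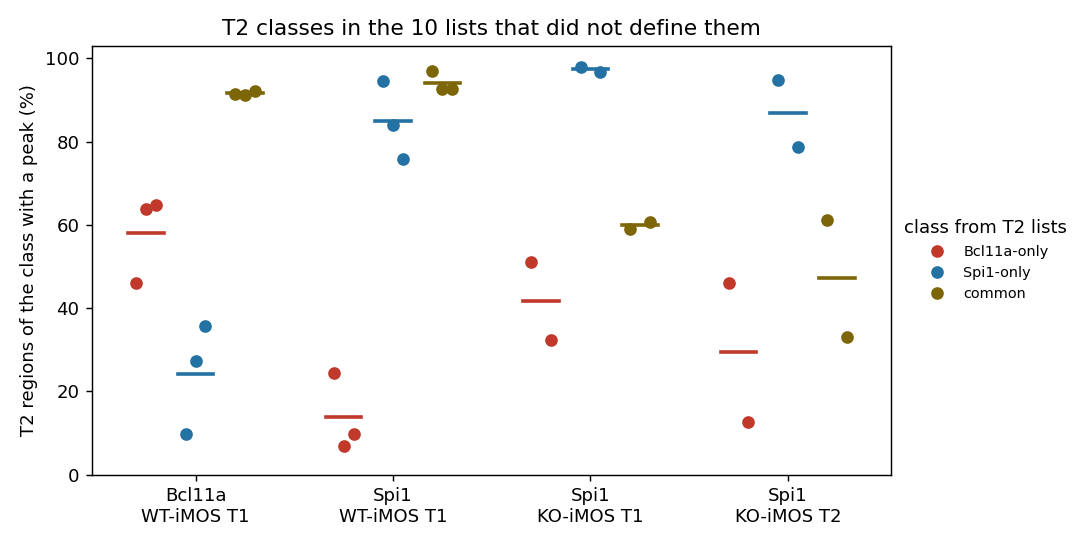
Share of the T2 regions of each class (vertical, percent) that had a peak in each library not used for the classes, by target, genotype and T label (horizontal); each point is 1 library and each line the mean of its group. Common regions lie above 91% in every WT-iMOS T1 list and between 33.1% and 61.2% in the KO-iMOS lists, while Spi1-only regions lie between 78.7% and 98.0% there.

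The KO-iMOS Spi1 lists held most Spi1-only regions and missed many of the common ones. Spi1-only regions had a peak in 98.0% and 96.8% of cases in the KO-iMOS T1 lists and 94.8% and 78.7% in the KO-iMOS T2 lists. Common regions had one in 59.1%, 60.8%, 61.2% and 33.1%, Bcl11a-only regions in 51.0%, 32.4%, 46.1% and 12.7%, and regions outside the classes in 52.1%, 42.6%, 43.0% and 22.1%. The common share less the Spi1-only share was −38.6 ± 5.19 points in the 4 KO-iMOS lists and 9.31 ± 7.32 points in the 3 WT-iMOS T1 Spi1 lists. The difference of −47.9 points separated all lists (exact two-sided permutation p = 0.0571, the smallest that 4 against 3 allows, and 0.114 after adjustment over 4 comparisons), and was −47.7 points with equal-length lists. The KO-iMOS lists held 20177, 12984, 14814 and 6337 peaks. With equal-length lists, Bcl11a-only regions had a peak in 7.82%, 3.91%, 8.79% and 5.54% of cases in them. Their mean share in KO-iMOS less that in WT-iMOS T1 Spi1 lists was 21.8 points with all peaks and −4.89 at equal length. The KO-iMOS lists also had wider peaks, with medians of 444 to 493 bp, and 31.6% to 34.8% of their summits within 1 kb of a gene boundary. Their peak names start with PWT and PKO, which the labels do not explain. The T label differed as well, since the KO-iMOS lists were T1 and T2 and the WT-iMOS lists compared were all T1. Genotype thus cannot be told apart from these other differences.

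The common regions that no KO-iMOS list called lay far from genes. Of the 816 common regions, 234 (28.7%) had no peak in any KO-iMOS list, and 1.28% of these were within 1 kb of a gene boundary. The 262 (32.1%) with a peak in all 4 KO-iMOS lists were near a boundary in 22.9% of cases. Of the 234, 155 (66.2%) had a peak in all 6 WT-iMOS T1 lists. For common regions in 0, 1, 2, 3 and 4 KO-iMOS lists the near-boundary share was 1.28%, 3.23%, 6.67%, 8.55% and 22.9%. Their median distance to a boundary was 31254, 32743, 25192, 28968 and 12150 bp, so by the median only those in all 4 lists stood apart. Median percentiles were 64.3, 73.5, 75.1, 92.2 and 80.7, with the strongest regions in 3 of 4 lists. Of the 1731 Spi1-only regions, 1353 (78.2%) were in all 4 KO-iMOS lists and 25 (1.44%) in none. Near a boundary lay 29.0% of these 1353 and 0 of these 25. For Bcl11a-only regions it was 77.8% of the 9 in all 4 lists and 15.4% of the 39 in none. The low near-boundary share of regions in no KO-iMOS list was therefore not particular to the common class.

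Common regions lay farther from genes than regions of a single target in the T2 lists. The midpoint was within 1 kb of a gene boundary in 33.3% of Bcl11a-only regions (95% interval 24.3 to 43.4%), 28.2% of Spi1-only regions (26.1 to 30.4%) and 10.3% of common regions (8.29 to 12.6%), against 20.1% of all regions. The median distance to the nearest annotated gene start was 14700, 14802 and 44660 bp. It covers the 97, 1684 and 792 regions on chromosomes with such a start. To the nearest gene boundary the medians were 6400.5, 7777 and 22030 bp over all regions of each class. Gene bodies held 55.7% of Spi1-only and 43.1% of common regions, against 50.7% of all regions. No test was made over regions, which share libraries.

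The low share of common regions held across the settings tried on the T2 lists. With equal-length lists the shares were 22.5% for Bcl11a-only, 25.6% for Spi1-only and 8.50% for common regions. Common was below both other classes in 16 of 16 settings, whereas Bcl11a-only was above Spi1-only in 10 of 16, so no order between those classes is given. Without Bcl11a replicate 1, the list with few near-gene peaks, there were 174 Bcl11a-only regions and the shares were 33.9%, 26.7% and 12.9%. Regions 1 list short of common were intermediate: 22% of the 355 that lacked 1 Bcl11a list and 18.2% of the 176 that lacked 1 Spi1 list lay near a boundary. Among regions with the same standing in the Spi1 lists, common regions were also lower, for example 7.02% against 25.5% of Spi1-only regions above the 90th percentile and 11.6% against 34.1% below the 50th. In the Bcl11a lists the band above the 90th percentile was the exception, with 0 of 6 Bcl11a-only regions and 2.59% of 270 common regions near a boundary.

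The WT-iMOS T1 lists repeated the greater distance of common regions in the median but not in the 1 kb share. In classes made from them the median distance to an annotated gene start was 26706 bp for common, 20340 bp for Spi1-only and 504 bp for Bcl11a-only regions. To a gene boundary it was 13637, 10672 and 490 bp. By the 1 kb share, common regions were within 1 kb of a boundary in 22.7% of 1263 cases and Spi1-only regions in 19.1% of 1240, while Bcl11a-only regions reached 55.7% of 219. Near-gene peaks were frequent in 2 of the T1 Bcl11a lists, at 38.5% and 40.7% of summits, and 20.7% in the third. The order of common and Spi1-only regions in the 1 kb share thus differed between the T2 and T1 lists, and that in the median did not.

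**Figure D3:**
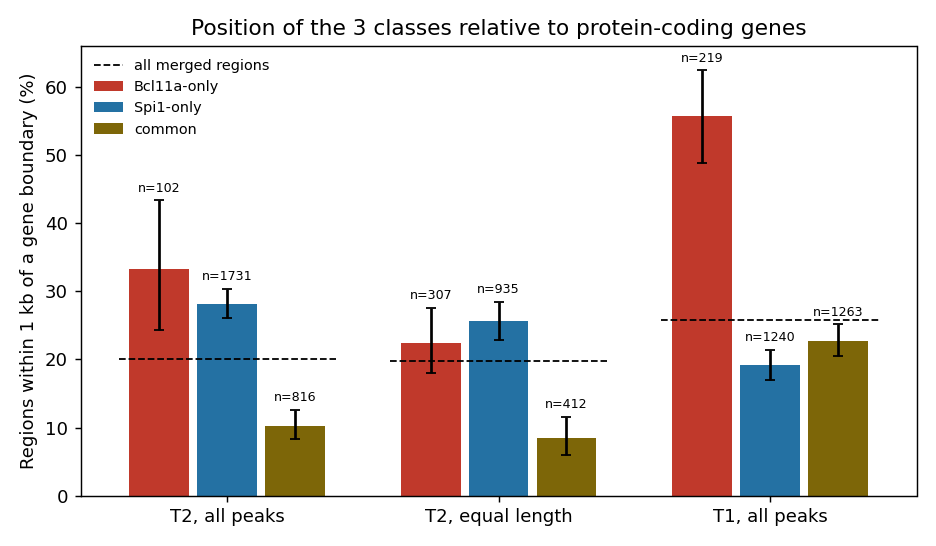
Share of regions whose midpoint is within 1 kb of the start or end of a protein-coding gene (vertical, percent), by class, for T2 with all peaks, T2 with lists of equal length and T1 with all peaks; bars are shares, whiskers 95% Clopper-Pearson intervals and dashed lines the share of all merged regions. Common regions are the lowest class in T2 (10.3% and 8.50%) and not in T1 (22.7% against 19.1% for Spi1-only).

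Bcl11a-only peaks were narrower than common peaks in every Bcl11a list. Median widths were 349.5, 381 and 390.5 bp for Bcl11a-only peaks and 482, 452 and 472 bp for common peaks in replicates 1, 2 and 3. The mean difference was −95.0 bp, lower in 3 of 3 lists (exact two-sided sign-flip p = 0.25, the smallest possible with 3 lists), and −56.5 bp with equal-length lists. In the Spi1 lists Spi1-only peaks measured 597, 440 and 350 bp and common peaks 574.5, 488.5 and 474 bp. The differences ran from −124 to 22.5 bp and had no shared direction (exact sign-flip p = 0.5). Merged regions had median widths of 508 bp for Bcl11a-only, 620 bp for Spi1-only and 710 bp for common, but a region of 6 peaks is wider than one of 3 by construction.

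Strength within the lists followed a similar line. The median Bcl11a-only peak stood at the 56.2, 54.4 and 63.7 percentile of −log10 p in its list, where 100 is the strongest, and the median common peak at 87.4, 79.8 and 84.2. In the Spi1 lists the Spi1-only medians were 86.4, 73.6 and 61.1 and the common medians 84.8, 80.5 and 79.4. With all peaks, Bcl11a-only regions were thus weaker than common ones in each Bcl11a list, and Spi1-only regions were not so in each Spi1 list. With equal-length lists the Spi1-only medians were 92.45, 84.88 and 77.74 and the common medians 96.28, 94.99 and 94.38. At that length Spi1-only regions were also weaker than common ones in each Spi1 list. The part of peak strength in the absence of Spi1 at these regions was not tested.

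Summits of Spi1-only regions coincided closely between libraries. The median distance between the summits of a pair of Spi1 lists was 25 to 40 bp, and 58.8% were within 50 bp of each other. In Bcl11a-only regions the Bcl11a pairs were 70 to 95.5 bp apart and 38.9% were within 50 bp. In common regions Bcl11a pairs lay 42 to 44.5 bp apart, Spi1 pairs 35 to 40 bp, and Bcl11a to Spi1 pairs 41.5 to 51.5 bp. The spacing between targets in common regions thus overlapped that within Bcl11a.

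**Figure D4:**
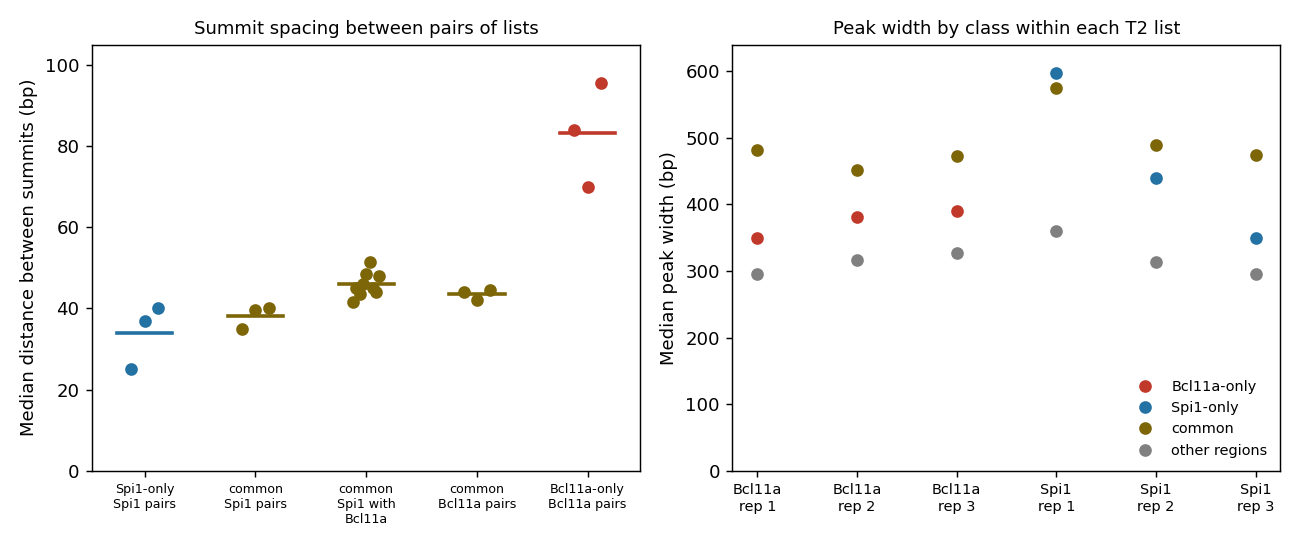
Left: median distance in bp between the summits of a pair of lists (each point 1 pair, each line their mean) for each class and kind of pair. Right: median peak width in bp in each of the 6 T2 lists for its own class, common regions and all other regions; Bcl11a-only summits are the farthest apart (70 to 95.5 bp) and Bcl11a-only peaks are narrower than common peaks in all 3 Bcl11a lists.

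The strongest Bcl11a-only regions lay in the immunoglobulin loci. Ranked by mean percentile, the first 5 of 102 were a region 12837 bp from Ighv1-61 (chr12:115372270-115372534) and regions inside Ighg2c (chr12:113287823-113288200), Igkv8-19 (chr6:70340935-70341188), Ighg3 (chr12:113360099-113360499) and Ighg1 (chr12:113329419-113329786). Ighg1, Ighg2c and Ighg3 are constant genes of IgG heavy chains, and Igkv8-19 is a variable segment of the kappa light chain. Segments of antigen receptor genes held 4 of the 102 Bcl11a-only regions (3.92%), 1 of 1731 Spi1-only, 0 of 816 common and 0.114% of all regions.

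The class itself requires a peak at these 4 segments in the 3 T2 Bcl11a lists and none in the 3 T2 Spi1 lists. The deposited fold enrichment at Ighg2c was 21.5, 23.9 and 21.9 in the T2 Bcl11a lists. It was 20.7, 24.2 and 19.9 at Igkv8-19, 15.8, 18.4 and 15.8 at Ighg3, and 14.1, 15.2 and 13.1 at Ighg1. In the lists that the class did not use, Ighg2c, Igkv8-19 and Ighg3 had a peak in 3 of 3 T1 Bcl11a lists and Ighg1 in 2 of 3, and each had one in 0 of 3 T1 and 0 of 4 KO-iMOS Spi1 lists. At Ighg2c, Ighg1 and Igkv8-19 the peaks began at the same base in every list that had one, and at Ighg3 in the 3 T2 lists. Whether these peaks reflect binding of Bcl11a was not tested. The neighbouring constant genes Ighm, Ighd, Ighg2b, Ighe and Igha, and Igkc of the kappa chain, had a peak in 0 of 16 lists. Leaving these regions out changed the near-gene share of the Bcl11a-only class from 33.3% to 34.7%.

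**Figure D5:**
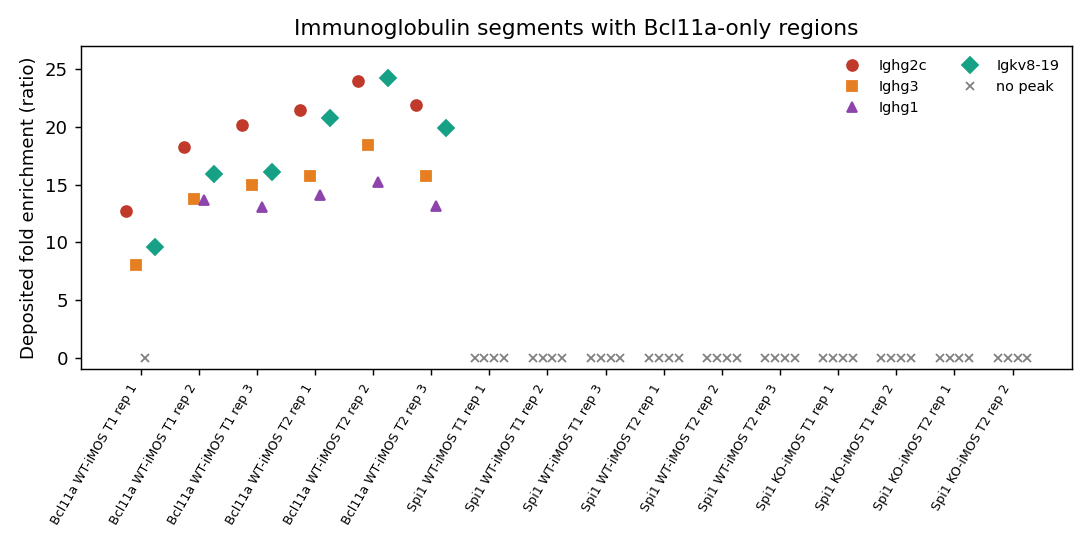
Deposited fold enrichment (vertical, a ratio) of the peak at 4 immunoglobulin segments in each of the 16 libraries (horizontal); crosses at 0 mark lists with no peak. The T2 calls are fixed by the class, with folds between 13.1 and 24.2 in the Bcl11a lists; among the other lists, Ighg1 lacks a peak in 1 T1 Bcl11a list and no Spi1 list has a peak.

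The next 5 Bcl11a-only regions lay in Mocos (molybdenum cofactor sulfurase), 20238 bp from Cbfa2t3 (a corepressor of the ETO family), in Tox2 (an HMG-box factor), 18301 bp from 1600014C23Rik and in Zbtb16 (PLZF, a zinc finger regulator of innate lymphocytes and progenitors). At Tox2 the folds were 6.78, 8.30 and 8.57 in the Bcl11a lists, and the T1 lists had a peak in 3 of 3 for Bcl11a and 0 of 3 for Spi1. At Zbtb16 they were 5.65, 6.95 and 6.97, with a T1 peak in 2 of 3 Bcl11a lists and 0 of 3 Spi1 lists. The KO-iMOS Spi1 lists had a peak at Tox2 and Zbtb16 in 1 of 4 each, at the Cbfa2t3 region in 3 of 4, at the 1600014C23Rik region in 4 of 4 and at Mocos in 0 of 4. Mocos had a Spi1 peak in 1 of 3 T1 lists.

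The strongest Spi1-only regions lay mostly in or close to genes, with 6 of the first 10 touching a gene body and 1 over 10 kb away. The 10 first ranked were at or near Smyd3 (a lysine methyltransferase), Acoxl, Mylpf (a myosin light chain), Mob1a and its neighbour Mthfd2 (mitochondrial folate enzyme), Esr1, Enpp3 (a basophil ectoenzyme), Rab39b, Rps19, Slc7a1 (an arginine transporter) and Rmnd5b. All 10 had a peak in 3 of 3 T1 Spi1 lists and 4 of 4 KO-iMOS lists. At Enpp3 the Spi1 folds were 22.2, 18.4 and 17.3 and the T1 Bcl11a lists had a peak in 0 of 3. Smyd3, Acoxl, Mylpf and Mob1a had a Bcl11a peak in 3 of 3 T1 lists, so the absence of Bcl11a in T2 did not extend to T1 there.

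The strongest common regions were mostly distant from genes. Of the 10 first ranked, 7 were over 10 kb from a protein-coding gene and 1 touched one, and their mean percentiles were 99.8 to 100. The first lay 1034581 bp from Lrrc4c, with folds of 16.1, 15.7 and 15.4 for Bcl11a and 15.8, 16.2 and 16.3 for Spi1. The second lay 29263 bp from Rpusd4, with folds of 35.0, 31.9 and 31.9 for Bcl11a and 32.3, 34.1 and 33.9 for Spi1. Folds of the targets overlapped at these regions, and every T1 list and at least 3 of 4 KO-iMOS lists had a peak at each of the 10. Regions known to give signal with any antibody were not removed, and their part in the common class was not tested. Without the regions above the 95th percentile, 12.1% of common and 28.5% of Spi1-only regions lay near a boundary.

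Genes were then read by lineage and function, counting a gene when a region of the class lay in its body or within 10 kb. Of 21883 protein-coding genes, 0.498% had a Bcl11a-only region, 7.67% a Spi1-only region and 2.58% a common region. The counts are not adjusted for gene length and are a description. Genes with a Spi1-only region (1679) and genes with a common region (565) shared 78 genes, 4.65% of the former and 13.8% of the latter.

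Myeloid genes had Spi1-only regions in 8 of 36 cases (22.2%) and common regions in 3 (8.33%). Spi1-only regions lay at the promoter of Fcgr1, with folds of 14.8, 14.0 and 9.92, and 2725 bp from Cebpa, the granulocytic C/EBP factor, with folds of 8.65, 6.42 and 5.85. Common regions lay in Csf2ra, the GM-CSF receptor alpha chain, in Fcgr3, an IgG receptor, and in Ncf4, an NADPH oxidase subunit. At Csf2ra the folds were 5.72, 5.68 and 5.78 for Bcl11a and 9.05, 9.68 and 9.13 for Spi1. Ncf4 carried a common and a separate Spi1-only region. With equal-length lists the counts were 3 of 36 for Spi1-only, 2 for common and 3 for Bcl11a-only, against 4.31%, 1.11% and 1.24% of all genes.

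Interferon and inflammation genes had Spi1-only regions in 9 of 30 cases (30.0%), the highest share among the 13 lists with all peaks but not at equal length. The leading ones were Il1b, a pyrogenic cytokine, Il6ra, the IL-6 receptor alpha chain, and Irf2, an interferon regulatory factor. At Il1b, 2124 bp from the gene, the Spi1 folds were 11.3, 10.6 and 10.4. Spi1 was called there in 3 of 3 T1 and 4 of 4 KO-iMOS lists and Bcl11a in 0 of 3 T1 lists. At Il6ra Bcl11a was called in 3 of 3 T1 lists, and at the strongest Irf2 region in 0 of 3. Common regions were found at Ifnar2 and Ifngr1, receptor chains for type I and type II interferon, and at Irf1, which also had a Spi1-only region (3 of 30). The Ifngr1 region covers the printed promoter, with folds of 6.39, 7.30 and 7.58 for Bcl11a and 11.6, 11.0 and 7.0 for Spi1. With equal-length lists Spi1-only and common regions were each found at 3 of 30 genes, while Spi1-only regions were at 18.2% of megakaryocyte and 15.4% of ribosomal genes.

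Spi1-only regions were at 5 of 34 lymphoid genes (14.7%), led by Ikzf1 (Ikaros), Notch1 and the kinase Syk, and at 5 of 30 stem and progenitor genes (16.7%), led by the homeobox factor Meis1 and the ETS factors Etv6 and Fli1. At equal length the counts were 2 of 34 and 3 of 30, against 4.31% of all genes. Ikzf1 had 3 Spi1-only regions, the strongest with folds of 15.6, 13.0 and 15.3. Notch1 also held a common region, with Spi1 folds of 15.5, 15.6 and 14.2 and Bcl11a folds of 6.83, 5.56 and 5.72. The Bcl11a-only region of this list was in Foxo1, a factor of B cell development, with folds of 4.83, 4.98 and 5.98 and a T1 peak in 1 of 3 lists of either target. Zfp36l2, an RNA-binding regulator of progenitors, was the stem cell gene with common regions.

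The erythroid and megakaryocyte lists held the Bcl11a-only regions at Gfi1b and Nfe2. Gfi1b is a transcriptional repressor that acts within both lineages. The region lay 9788 bp from the gene with folds of 3.98, 3.89 and 4.07, and no other list of the series had a peak there. Nfe2, a factor of platelet formation, lay 7828 bp from its region, which touches the gene of Hnrnpa1, an RNA-binding protein. The midpoint of the region was 131 bp from the nearest annotated gene start. That region was at the 5.88, 5.55 and 72.0 percentile of the Bcl11a lists, had a T1 Spi1 peak in 2 of 3 lists and a KO-iMOS peak in 4 of 4. Spi1-only regions were at 2 of 25 erythroid genes (8%, beside 7.67% of all genes), Sptb (beta spectrin) and Tfrc (transferrin receptor). They were at 4 of 22 megakaryocyte genes, led by Plek, Fli1 and Selp. With equal-length lists the counts were 0 of 25 and 4 of 22. Selp had a Bcl11a peak in 3 of 3 T1 lists, Tfrc in 2, Plek and Fli1 in 1 each and Sptb in 0. Ank1 (erythroid ankyrin) held a common region with folds of 18.5, 17.1 and 15.0 for Bcl11a and 17.2, 17.1 and 17.9 for Spi1, called in 1 of 4 KO-iMOS lists.

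Ribosomal and translation genes had Spi1-only regions in 6 of 26 cases (23.1%), led by Rps19, the translation factor Eif5a and Rps3, and a common region near Rps18. Dendritic cell genes had Spi1-only regions in 4 of 20 (2 of 20 at equal length), led by Cd74 (invariant chain), Sirpa and Xcr1. The strongest Cd74 region and the Xcr1 region had a Bcl11a peak in 3 of 3 T1 lists, and Sirpa in 0 of 3. Mast cell and basophil genes had 2 of 18 (Mitf and Hdc) and cell cycle genes 2 of 26 (Mcl1 and Mki67). Splicing genes had 2 of 24 (Sf3b1 and U2af2) and oxidative phosphorylation 1 of 20 (Sdhb). These shares were 11.1%, 7.69%, 8.33% and 5%, beside 7.67% of all genes. With equal-length lists the counts were 0 of 18, 0 of 26, 2 of 24 and 1 of 20, against 4.31%. At the strongest region of each gene, Bcl11a was called in 3 of 3 T1 lists for Mki67, 2 for Mcl1 and 1 for Sdhb. It was called in 0 for Mitf, Hdc, Sf3b1 and U2af2. Genes of non-haematopoietic tissues had 0 of 30 Spi1-only regions and 1 common region, in Lepr. Ccnd2 and Cdk6, cyclin D2 and a partner kinase, held common regions, and so did Zfpm1 and Srsf2.

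At the genes of the factors themselves no region met a class. Bcl11a had a region in its body at chr11:24077494-24077986, where the gene spans 24076564 to 24173558. The nearest start among the promoter windows, which do not cover every gene start, was 2955 bp from the midpoint of the region. The region had a peak in 3 of 3 Bcl11a and 2 of 3 Spi1 lists of T2 and in 0 of 6 T1 lists. Spi1 had a region at chr2:91082586-91083588 with a peak in 2 of 3 Bcl11a and 3 of 3 Spi1 lists, and in all 6 T1 and all 4 KO-iMOS lists. A second, at chr2:91096558-91097196, was called in 1 of 3 Bcl11a and 3 of 3 Spi1 lists.

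The label MPP3 could be set beside the loci of progenitor surface receptors and markers only as peaks, since peak lists hold no expression. Flt3, a cytokine receptor of multipotent progenitors, had 2 Spi1-only regions inside the gene. Kit, Cd34, Cd48 and Slamf1 each had a Spi1 peak in 1 of 3 lists and Bcl11a in 0 of 3. Absence of a peak says only that none passed the authors' threshold at an unknown depth.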

How the data were processed

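The authors deposited a separate narrowPeak list for each library. Bowtie2, SAMtools, MACS2 and the build mm10 are named per the submitters' processing notes; versions and settings are not given in the sources used here, nor is the use of a control. The deposited columns hold a score, a fold enrichment (a ratio over local background), a −log10 p-value and a −log10 q-value. These are the authors' own values, used only to rank, describe or filter peaks within a list. Every deposited −log10 q in the T2 lists was above 2. The lists hold no read counts, so depth is unknown, and the number of peaks sets the precision of a share; intervals are 95% Clopper-Pearson and cover counting error only.

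Peaks off assembled chromosomes were left out (34189 of 34989 kept in the 6 T2 lists). No pair of the 16 lists shared more than 36 identical intervals. Regions were merged at 1 bp, and lists were also cut to 2605 peaks, the shortest, by the deposited −log10 p (column 8). Genes were 21883 protein-coding genes of a RefSeq table on GRCm38.p6, which gives no strand or exons; gene starts came from 21262 RefSeq promoter windows of 17491 genes. Exonic, intronic and UTR positions were therefore not separated. Genes without a promoter window, among them those on chromosome 18, had no annotated start. Distances to an annotated start can therefore be longer than to the true nearest start. Such genes also had no part in the motif shares. Libraries were compared by exact two-sided permutation, and classes within a list by exact sign-flip tests, in Python 3.11.15 with numpy 2.4.6, pandas 2.3.3 and scipy 1.17.1 (figures: matplotlib 3.10.9). The code for merging, classes and tests was tested on simulated lists. No test was made over regions or genes.

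Named genes are, per list and class, up to 3 with a region within 10 kb, by highest mean percentile of −log10 p, and the 10 strongest regions per class. A gene that the rule took is not reported here. Genes of printed promoters outside this rule and the immunoglobulin segments were chosen after their values were seen. The 13 lists held 336 genes, of which 335 were found. The comparison, its classes and the gene lists were chosen with earlier results of these data known. Alternatives were list length, ranking by fold, a −log10 q above 5, overlap of 50%, 2 of 3 lists per class, other gene distances, a replicate block and leaving out each replicate; strength bands, removal of antigen receptor regions and removal of the strongest regions were added after seeing the data.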

Additional observations from a re-analysis of the deposited data

Results flagged for a closer look

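Common regions fared differently from Spi1-only regions in KO-iMOS and WT-iMOS. The share of common regions called less the share of Spi1-only regions called was lower by −47.88 percentage points in the 4 KO-iMOS Spi1 lists than in the 3 WT-iMOS T1 Spi1 lists. It was below 0 in 4 of 4 KO-iMOS lists, from −45.7 to −33.6, and above 0 in 3 of 3 WT-iMOS T1 lists, from 2.31 to 16.9. The exact permutation test of this difference gave p = 0.0571, the smallest possible, and 0.114 after Benjamini-Hochberg adjustment over 4 comparisons. The KO-iMOS lists differ from the others also in peak width, gene proximity and peak-name prefixes, which cannot be told apart from genotype. Nor can the T label, since the KO-iMOS lists were T1 and T2 and the WT-iMOS lists compared were all T1.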

How the results depend on the processing

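Region counts and widths depended on list length and on how many lists a class required. Cutting lists to equal length by −log10 p gave 307 Bcl11a-only, 935 Spi1-only and 412 common regions, with widths of 589, 667 and 614 bp and near-gene shares of 22.5% for Bcl11a-only and 25.6% for Spi1-only regions. Cutting by fold gave 299, 888 and 327 regions, widths of 599, 661.5 and 590 bp, and 23.1% of Bcl11a-only regions near a gene. Requiring 2 of 3 lists gave 379, 3802 and 1669 regions, widths of 437, 537 and 647 bp, and near-gene shares of 24.3% for Bcl11a-only and 15.1% for common regions. With −log10 q above 5 the widths were 546 bp for Bcl11a-only and 674.5 bp for common regions. Within 3 kb of a boundary the near-gene shares were 45.1%, 37.4% and 16.2%, and by gene start only they were 24.4% for Spi1-only and 7.95% for common regions. Without the strongest regions the common width was 737 bp.

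The width difference between Spi1-only and common peaks within the Spi1 lists reversed, from −50.0 bp to 0.667 bp (cut by −log10 p) and 24.8 bp (cut by fold); the cause was not tested. Number of peaks per list is equal by construction when lists are cut, so it has no value there.

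Leaving out 1 replicate at a time gave 118 to 223 Bcl11a-only, 1793 to 3398 Spi1-only and 836 to 981 common regions, since classes then ask for fewer lists. The Bcl11a-only count passed 1.5 times the reported one without Bcl11a replicate 1 (174), 2 (223) or 3 (185) and without Spi1 replicate 1 (195), and the Spi1-only count without Spi1 replicate 3 (3398). Near-gene shares ran from 22% to 39.0% for Bcl11a-only, 26.2% to 28.9% for Spi1-only and 10.2% to 12.9% for common regions. Widths ran from 434 to 534 bp, 476 to 627 bp and 652 to 694.5 bp. The differences in T1 calls kept their direction, from 21.7 to 50.5 points for Bcl11a-only and from −66.3 to −48.0 points for Spi1-only regions; the lowest Bcl11a-only value came without T2 Bcl11a replicate 2.

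Same-numbered Bcl11a and Spi1 libraries did not deviate together over 8133 regions (r = −0.262, 0.0133 and −0.103). Pairs with different numbers ran from −0.194 to 0.245. Peak calls of different targets cannot show whether same-numbered libraries came from the same animal or batch, which the labels do not state. With replicate block the differences between targets were −4458 peaks (exact sign-flip p = 0.25), −22.7 bp in median width (p = 0.75) and −3.86 points in near-gene summits (p = 0.75). The T1 differences of 44.4 and −60.6 points had exact sign-flip p = 0.25. The block changed no call, and neither design can pass 0.05.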
